A study of Homo sapiens with 21 samples.

Results

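The genes described here encode the content of cytotoxic granules, 5 granzymes (GZMA, GZMB, GZMH, GZMK and GZMM), perforin (PRF1), granulysin (GNLY) and serglycin (SRGN). They were taken by symbol from the gene identifiers of the expression files, and all 8 were found among 58174 identifiers. The members were chosen by name and selected on the measured TPM of GZMB, which went from near 0 to a high level within 48 h of UM171. The time course of GZMB is therefore given as a description without a test. For GZMB a test is given only for UM171 against DMSO within sgEPCR cells, in a fit that also held control libraries. For the other 7 genes tests are given throughout. OCI-AML5, a human acute myeloid leukemia cell line, was exposed to UM171, a small molecule that supports hematopoietic stem cell expansion in culture, and poly(A) RNA was sequenced from 7 groups of 3 libraries, 21 libraries in all. The groups were cells in DMSO, the vehicle, labelled as kept for 72 h, cells in UM171 for 6, 24, 48 and 72 h, and cells expressing sgEPCR, labelled as an EPCR knockdown, kept in DMSO or exposed to UM171, both for 24 h. The labels give the dose as 500 nM, whereas a legend of the study names a lower dose. All 4 time points were set against the same DMSO libraries, so these comparisons share their controls and time in culture was not matched. The DMSO and UM171 24 h libraries also served as the control cells of the sgEPCR comparison, in which the guide targeted the gene of EPCR, PROCR. Since the control DMSO libraries were kept for 72 h and the sgEPCR DMSO libraries for 24 h, genotype and time in culture cannot be told apart in DMSO or in the interaction. Other labels call the sgEPCR cells clones and EPCR null, and they do not say which clone or guide a library number stands for. They also do not say whether the libraries of a group came from separate cultures, so the spread between them may be partly technical.

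Cytotoxic lymphocytes kill by releasing granules onto a target cell. Granzymes are serine proteases that are stored in these granules on the sulfated chains of serglycin, a proteoglycan of many blood cells, and enter the target through pores formed by perforin, while granulysin permeabilises membranes of microbes and cells. Granzyme B cleaves after aspartate and can trigger apoptosis through caspases and BID, and it is also known from plasmacytoid dendritic cells, basophils and mast cells, some of which make it without perforin.

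Total expected counts per library lay between 24.3 and 51.5 M, with a median of 33.9 M. Mitochondrial genes held 7.73 to 13.5% of the counts in 19 libraries, but 35.9% in replicate 1 of sgEPCR DMSO and 32.2% in replicate 2 of sgEPCR UM171, and sgEPCR results past both limits are therefore given with and without this pair. PROCR, the targeted gene, stood at 3.37 to 4.30 TPM (a level per length, scaled to the same total in each library) in DMSO and 48.5 TPM in all UM171 24 h libraries, but at 2.30 to 4.53 TPM in sgEPCR DMSO and 4.23 to 8.94 TPM in sgEPCR UM171. The lowest signal considered was 3 counts, which corresponded to 0.0379 to 0.228 TPM for PRF1, 0.106 to 0.281 TPM for GNLY and 0.116 to 0.399 TPM for GZMB, depending on the library. Floors and counting intervals cover counting error only.

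On 14q12, GZMB (GRCh38, chr14:24630954-24634267, minus strand) and GZMH (chr14:24606480-24609699, minus strand) lie in a cluster of granule proteases with CTSG and CMA1. The promoters of this pair are shown because GZMB was the granzyme with a high level in these cells and its closest relative GZMH was not. Each run covers 250 bases before and 50 bases after the RefSeq start on GRCh38.p14, with GZMB at chr14:24634141-24634440 and GZMH at chr14:24609636-24609935, read on the minus strand. Capitals mark matches, on either strand, to 5 motifs of transcription factors, and no marked matches overlap. The letters searched for the AP-1 family were TGANTCA. Those for the core of the element that responds to cAMP were TGACGT. The RUNX family, which acts in lymphocytes and myeloid cells alike, was searched as TGTGGT. For the GATA family, whose members act in mast cells and red cells, the letters were AGATAA. For the STAT family of cytokine signaling the letters were TTCNNNGAA.
GZMB: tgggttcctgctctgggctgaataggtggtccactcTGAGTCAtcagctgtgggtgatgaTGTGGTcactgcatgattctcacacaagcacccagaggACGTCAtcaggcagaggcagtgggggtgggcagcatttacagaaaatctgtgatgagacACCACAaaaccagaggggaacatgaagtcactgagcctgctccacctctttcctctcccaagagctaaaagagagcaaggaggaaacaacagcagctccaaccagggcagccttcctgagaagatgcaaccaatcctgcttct
GZMH: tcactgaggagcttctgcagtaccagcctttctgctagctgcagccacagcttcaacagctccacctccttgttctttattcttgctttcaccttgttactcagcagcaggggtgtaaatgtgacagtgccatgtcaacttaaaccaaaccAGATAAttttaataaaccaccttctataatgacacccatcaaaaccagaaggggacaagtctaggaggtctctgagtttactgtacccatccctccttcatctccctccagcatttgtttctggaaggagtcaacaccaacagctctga
Counted from the start, the GZMB run held an AP-1 match at -214, RUNX matches at -190 and -93 and a cAMP response element core at -152. GZMH had a GATA match at -99 and no match to the other 4 motifs. Among 35116 promoters of the same length, 7.71% held the AP-1 letters, 13.1% the RUNX letters, 7.98% the cAMP response element core, 10.3% the GATA letters and 7.66% the STAT letters. The promoters of GZMA, PRF1 and GNLY, which were also in the table, held a RUNX match each at -54, -62 and -62 and no other match. SRGN, GZMK and GZMM were not in the promoter table. A match is a description of the letters and not a binding site.

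GZMB, the aspartate-cleaving granzyme, was close to absent in DMSO and among the abundant transcripts after 48 h of UM171. Its expected counts in the DMSO libraries were 1, 0 and 1, and after 6 h of UM171 they were 0, 2 and 1, all below 3 counts. After 24 h the counts were 15, 30 and 19, or 0.58, 1.23 and 2.15 TPM. All 3 libraries at 24 h were above the 6 libraries of DMSO and 6 h.
After 48 h the counts were 3505, 2162 and 1467, or 141, 134 and 96.9 TPM. After 72 h they were 2777, 3064 and 3394, or 159, 172 and 169 TPM. The 72 h libraries were all above the 48 h libraries, and the 48 h libraries were all above those at 24 h. Mean TPM was 0.05 ± 0.05 in DMSO and 0.09 ± 0.0781, 1.32 ± 0.789, 124 ± 23.5 and 167 ± 7.22 after 6, 24, 48 and 72 h (SD, n = 3 each).
Per total count, the sum over the 24 h libraries was 28.3 times that of DMSO (95% exact counting interval 7.52 to 239), a wide interval because DMSO held 2 counts in all. The ratio to DMSO was 3600.2 (996 to 29734) at 48 h and 4665 (1291 to 38528) at 72 h. From 24 to 48 h the ratio was 127 (99.6 to 165), and from 48 to 72 h it was 1.30 (1.26 to 1.34). These intervals pool the libraries of a group, leave out the spread between them and are no test, since GZMB was chosen on this rise. Most of the difference between DMSO and 72 h was thus present at 48 h. Ranked among all identifiers, GZMB lay at the 75.1 to 79.6 percentile at 24 h, at 97.7 to 98.3 at 48 h and at 98.7 to 98.8 at 72 h. The effective length that RSEM assigned to GZMB ranged from 420.4 to 856 bases between libraries, so that TPM and counts did not rank the 24 h libraries alike.

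**Figure D1:**
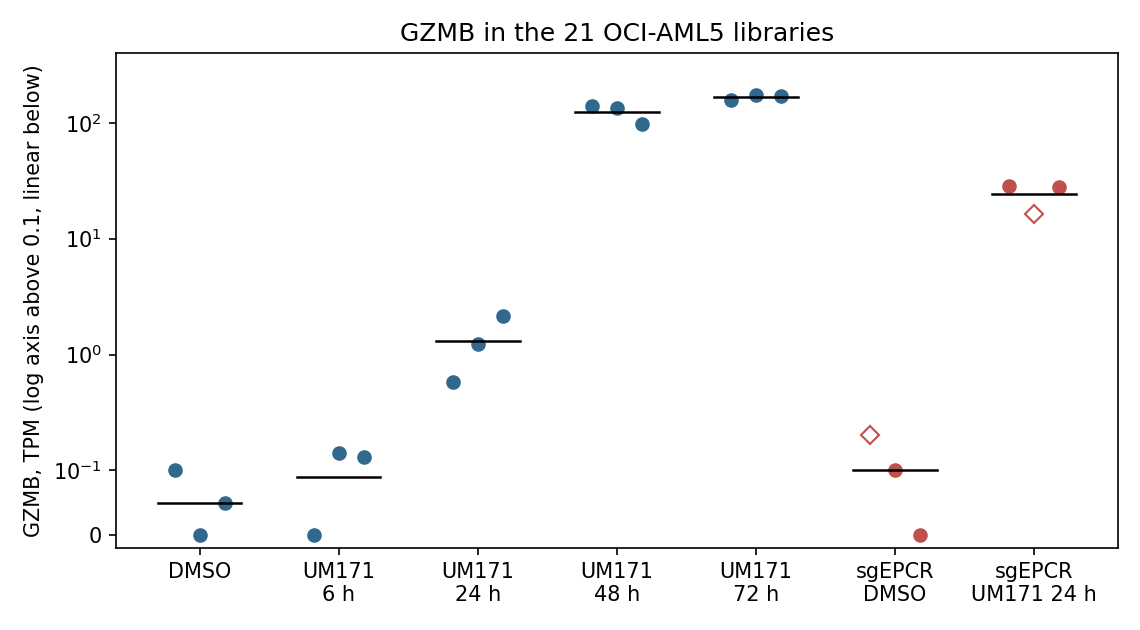
GZMB in TPM (y axis, logarithmic above 0.1 and linear below) in each of the 21 libraries by group (x axis), with the group mean as a black line; open diamonds are the libraries with over 20% mitochondrial counts, red symbols sgEPCR cells. The DMSO, 6 h and sgEPCR DMSO libraries lie at or below 0.2 TPM, the 24 h libraries between 0.58 and 2.15, the sgEPCR UM171 libraries between 16.3 and 28.6, and all 48 and 72 h libraries above 96.

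In sgEPCR cells, GZMB was again near 0 without UM171, and it rose after 24 h of UM171. The counts were 4, 1 and 0 in sgEPCR DMSO and 480, 291 and 608 in sgEPCR UM171, the latter corresponding to 28.6, 16.3 and 27.9 TPM (mean 24.3 ± 6.91, SD, n = 3). The groups did not overlap, and replicate 2, with 32.2% mitochondrial counts, was the lowest of the UM171 libraries. The difference was 7.77 on the log2 scale (SE 0.58, adjusted p = 1.4e-06, edgeR's quasi-likelihood test with Benjamini-Hochberg adjustment over 15901 genes). The fit estimated the spread over all 12 sgEPCR and control libraries, so this SE and adjusted p do not come from the sgEPCR libraries alone. In this comparison 10.3% of all genes were past the same limits, 0.0001 for the adjusted p together with 2-fold, in either direction, and 6.99% did so upward. GZMB was the only member past them of the 2 tested, GZMB and SRGN. With at most 4 counts in any DMSO library, GZMB passed the filter on low counts through the UM171 groups. Its passing and its upward direction are therefore not independent. The ratio of summed counts per total count was 269.6 (115 to 832).
Without sgEPCR DMSO replicate 1, which held 4 of the 5 counts of its group, the difference was 9.59, and without both libraries of high mitochondrial share it was 9.64 (adjusted p = 6.8e-11, edgeR), where 15.7% of 16360 genes were past both limits. With the replicate number as a block it was 7.74 (SE 0.74) and the adjusted p was 0.00061 (edgeR), over the limit of 0.0001.
At the same 24 h, the sgEPCR libraries held 24.3 times the GZMB counts per total count of the control cells in UM171 (95% exact counting interval 18.9 to 31.7), and the 3 libraries of each group did not overlap. The level in sgEPCR UM171 was in turn below that of the control line at 48 h, with a ratio of 5.25 (4.95 to 5.56) in favor of 48 h. By mean TPM the groups ran from DMSO, 6 h and sgEPCR DMSO, which overlapped, to 24 h, sgEPCR UM171, 48 h and 72 h, with no overlap between neighbours among the last 4. The difference between the genotypes is a description, because the control libraries were part of the time course that chose GZMB, and clone and genotype cannot be told apart in it.

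The other granzymes were at or under 3 counts in every library. GZMA, a trypsin-like granzyme on chromosome 5, had 1 count in each of 3 libraries and 0 in 18. GZMK, its neighbour on chromosome 5, had 0 counts in all 21 libraries, which allows up to 0.105 to 0.224 TPM depending on the library. GZMM, on chromosome 19, had 21 counts in all, above 0 in 12 libraries and at 3 counts in 3 of them, and none in the 3 libraries of UM171 24 h.
GZMH, the neighbour of GZMB, had counts in 4 libraries, with 1.03 and 1 at 48 h and 1 and 2.07 in sgEPCR UM171, all of them libraries in which GZMB held 291 counts or more. It had 0 counts in all 72 h libraries, where GZMB held 2777 to 3394. GZMH was also at 0 in replicate 2 of 48 h and replicate 1 of sgEPCR UM171, where GZMB held 2162 and 480 counts. Fractions arise when RSEM splits a read between genes, and in the libraries with 1.03 and 2.07 for GZMH the count of GZMB was also fractional, 3504.97 and 607.93, while the sums of both genes were whole numbers. Transcripts of both genes in GENCODE 44 shared a run of 106 identical bases, and 3.58% of the 50-base words of GZMB transcripts also occurred in GZMH. The GZMH counts are therefore uncertain, and whether they came from GZMB was not tested. None of these 4 granzymes passed the filter on low counts, so none was tested. None exceeded 3 counts in any library, and changes below that floor were not detectable at this depth.

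Perforin, the pore former, was at a trace level in every group. PRF1 (chr10:70597348-70602759, minus strand) had 1, 1 and 0 counts in DMSO, 3, 0 and 0 at 6 h and 3, 8 and 4 at 24 h. At 48 h the counts were 19, 12 and 1, and at 72 h they were 3, 11 and 6. In TPM the highest library, at 48 h, reached 0.52. The 24 and 72 h libraries were all above DMSO, whereas the 48 h group overlapped it through the library with 1 count.
The log2 differences from DMSO in PRF1 after 6, 24, 48 and 72 h were 0.49 (SE 1.49), 2.50 (SE 1.11), 3.72 (SE 0.96) and 3.04 (SE 1.05). Their adjusted p-values by edgeR were 0.79, 0.055, 0.0023 and 0.015, none under 0.0001. In sgEPCR cells PRF1 had 0, 0 and 1 counts in DMSO and 8, 7 and 7 in UM171, a ratio per total count of 21.5 (95% exact counting interval 3.48 to 887). The gene was below the filter in the sgEPCR fit and was not tested there.

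Granulysin showed counts of the same order, with the higher values later. GNLY (chr2:85685175-85698852, plus strand) had 0, 3 and 3 counts in DMSO, none after 6 h, and 0, 0 and 2 counts after 24 h. It had 18, 4 and 4 counts after 48 h and 18, 15 and 14 after 72 h. All 48 and 72 h libraries were above all DMSO libraries, with 0.85 to 1.43 TPM at 72 h.
The log2 differences in GNLY were 2.00 at 48 h (SE 0.78, adjusted p = 0.031, edgeR) and 2.85 at 72 h (SE 0.71, adjusted p = 0.0019, edgeR), short of the limit of 0.0001. The value at 48 h rested on single libraries, being 1.23 (adjusted p = 0.26, edgeR) without the 48 h library with 18 counts and 1.47 (adjusted p = 0.10, edgeR) without DMSO replicate 1, and DESeq2 gave an adjusted p of 0.056. At 6 and 24 h the differences in GNLY were -4.14 and -1.58, with adjusted p-values of 0.059 and 0.27 (edgeR). In sgEPCR cells GNLY had 0, 3 and 2 counts in DMSO and 27, 4 and 14 in UM171, a ratio of 8.80 (95% exact counting interval 3.50 to 28.4), and the lowest UM171 library was replicate 2 with its high mitochondrial share. GNLY was below the filter of that fit, and passed it without the pair, with a log2 difference of 2.86 (SE 0.83, adjusted p = 0.0067, edgeR). PRF1 and GNLY passed the filter of the time course fit through the groups in which they had counts, so that their passing and their direction are not independent. The same holds for GNLY in the sgEPCR fit without the pair, which it passed through sgEPCR UM171, the group with most of its counts. Over all libraries GNLY held 45 counts in sgEPCR UM171 and 2 in control cells in UM171 24 h. The ratio per total count was 25.3 (95% exact counting interval 6.62 to 216).
Of the 7 members other than GZMB, 3 (PRF1, GNLY and SRGN) were tested in the time course and 0 passed both limits at any time, beside 7.03, 13.7, 16.4 and 20.8% of 16575 genes after 6, 24, 48 and 72 h. DESeq2 and limma also called 0 at each time. At an unadjusted p under 0.05 the numbers of members by edgeR were 2, 2, 3 and 3, without a share of all genes to set beside them. At an adjusted p under 0.05 with no minimum fold they were 1, 1, 3 and 3, beside 62.1, 69.7, 72.1 and 75.6% of all genes.

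**Figure D2:**
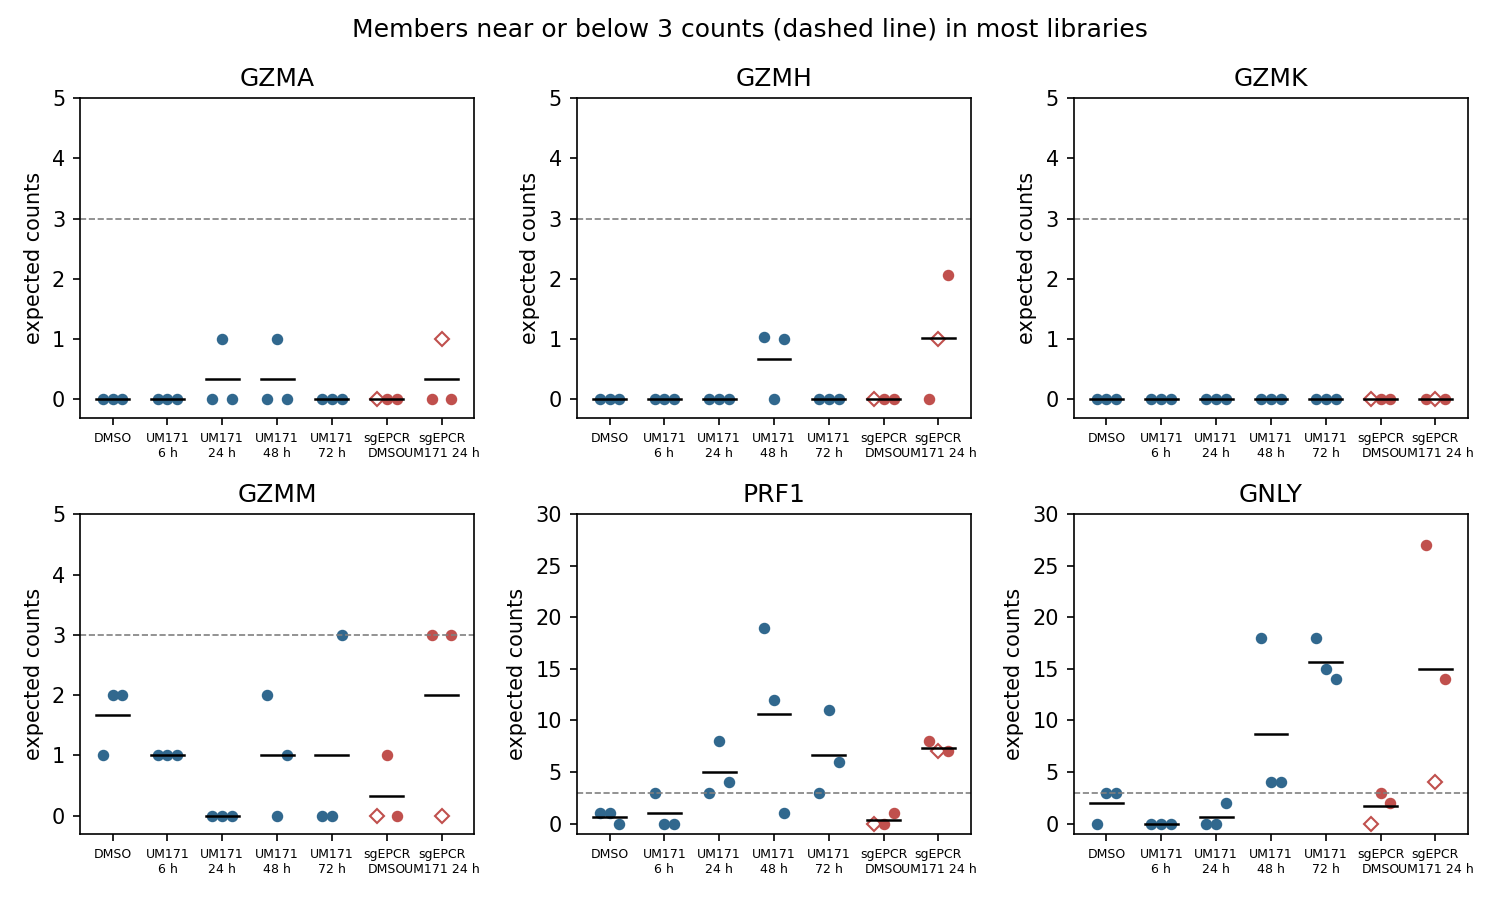
Expected counts (y axis) of the 6 members at or near the floor in each library by group (x axis), with group means as black lines, the floor of 3 counts as a dashed line and the libraries with over 20% mitochondrial counts as open diamonds. GZMA, GZMH, GZMK and GZMM do not exceed 3 counts, whereas PRF1 reaches 19 at 48 h and GNLY 27 in sgEPCR UM171.

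Serglycin, the carrier proteoglycan, was among the most abundant transcripts in all libraries, between the 99.87 and 99.95 percentile of identifiers. SRGN (chr10:69088103-69104805, plus strand) stood at 2323, 2393 and 2393 TPM in DMSO, at 1971, 2065 and 2054 TPM at 6 h and at 2197, 2207 and 2240 TPM at 24 h. The 6 h libraries were all below the 24 h libraries, which were all below DMSO.
At 48 h SRGN stood at 2961, 3083 and 2437 TPM and at 72 h at 2663, 2708 and 3012 TPM. These groups overlapped each other, and each was above DMSO. The lowest 48 h library was also the one with the highest mitochondrial share of its group, 13.5%.
The log2 differences from DMSO in SRGN after 6, 24, 48 and 72 h were -0.39, -0.14, 0.28 and 0.17 (SE 0.04 each), with adjusted p-values by edgeR of 2.9e-07, 0.0059, 7.8e-06 and 0.0011. Those at 6 and 48 h were past an adjusted p of 0.0001, but none was over 2-fold. Their directions held under every other choice, but sizes and p-values did not. At 6 h the difference was -0.20 with total count scaling (adjusted p = 0.0018, edgeR) and -0.22 with limma on log2(TPM + 1) (adjusted p = 0.033). At 24 h the adjusted p was 0.068 with total count scaling (edgeR) and 0.32 with limma. With all libraries in a single edgeR fit it was 0.29 at 24 h, 0.026 at 48 h and 0.18 at 72 h.

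In sgEPCR cells SRGN stood at 1599, 3138 and 3092 TPM in DMSO and 3303, 2377 and 3241 TPM in UM171, and the low value of each group belonged to the library with the high mitochondrial share. As counts per M counted outside the mitochondrial genes the same libraries no longer stood low, with 2785, 2637 and 2641 in sgEPCR DMSO and 2701, 3531 and 2649 in sgEPCR UM171, beside 1951 to 1969 in DMSO and 1806 to 1830 in UM171 24 h. On that scale all sgEPCR libraries were above all control libraries.
The SRGN difference between sgEPCR and control cells was 0.57 in DMSO (SE 0.13, adjusted p = 0.0058) and 0.68 in UM171 24 h (SE 0.13, adjusted p = 0.0015), by edgeR, and 0.50 in both without the pair of libraries. These values depended on the scaling. With total count scaling the difference in DMSO was 0.29 (adjusted p = 0.096, edgeR), and with limma on log2(TPM + 1) it was 0.074 (adjusted p = 0.88), with 0.41 (adjusted p = 0.34) for the difference in UM171. The response to UM171 within sgEPCR cells was -0.02 (SE 0.13, adjusted p = 0.93), or -0.13 (SE 0.03, adjusted p = 0.0024) without the pair, and the genotype by UM171 interaction was 0.11 (SE 0.18, adjusted p = 0.64), or 0.0077 without the pair (SE 0.04, adjusted p = 0.88), by edgeR. In both genotype comparisons and the interaction 0 of the members passed both limits, with SRGN the one tested, beside 2.84%, 4.46% and 7.77% of 15901 genes. Without the pair 2 members other than GZMB were tested, SRGN and GNLY, with median log2 differences of 0.39, 2.62 and 2.23. The count past both limits was again 0 in these comparisons, beside 6.50, 9.87 and 19.1% of 16360 genes. DESeq2 and limma called 0 in these, and SRGN had an unadjusted and an adjusted p under 0.05 by edgeR in both genotype comparisons and not in the interaction, beside 33.7, 43.0 and 45.0% of genes at that adjusted p with no minimum fold.
Within each library, GZMB stood at 3.98 to 4.75% of the TPM of SRGN at 48 h, 5.61 to 6.37% at 72 h and 0.686 to 0.866% in sgEPCR UM171, and at no more than 0.096% in the other 4 groups. SRGN still held 94.0 to 94.7% of the summed TPM of the 8 genes at 72 h.

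**Figure D3:**
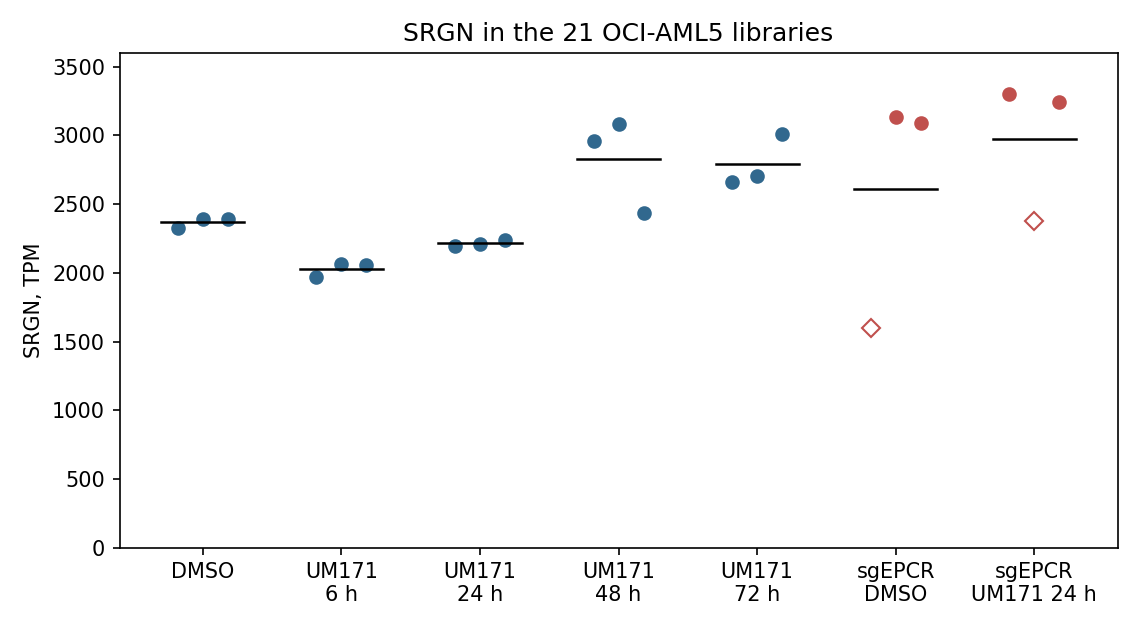
SRGN in TPM (y axis, from 0) in each library by group (x axis), with group means as black lines; open diamonds are the libraries with over 20% mitochondrial counts. The 6 h libraries lie at 1971 to 2065 TPM, below DMSO at 2323 to 2393, and both open diamonds are the lowest of their group.

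Around GZMB on 14q12, CTSG, the gene of cathepsin G, a serine protease of neutrophil and monocyte granules, followed another order. CTSG stood at 28.6 to 33.0 TPM in DMSO, at 43.9 to 45.9 TPM after 6 h and at 32.4 to 35.8 TPM after 24 h. After 48 h, when GZMB was already high, CTSG stood at 29.9 to 37.2 TPM, and after 72 h it stood at 134 to 155 TPM. The log2 differences from DMSO were 0.36 at 6 h (adjusted p = 6.4e-05, edgeR), under 2-fold, and 2.11 at 72 h (SE 0.06, adjusted p = 3.4e-15, edgeR), past both limits. In sgEPCR cells CTSG fell by 1.57 on the log2 scale with UM171 (SE 0.20, adjusted p = 8.2e-05, edgeR), from 15.9 to 44.1 TPM to 5.02 to 19.5 TPM, ranges that overlap, whereas GZMB rose in the same libraries. Without the pair CTSG fell by 1.43. CMA1, mast cell chymase, had 0 counts in all libraries.

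Granzymes and perforin need proteolytic trimming, and some of the cysteine proteases that perform it, and of the cystatins that limit it, rose. Of 7 such genes, 5 proteases and 2 cystatins, 6 were tested, and the numbers that rose after 6, 24, 48 and 72 h were 0, 1, 2 and 4, and none fell at any time, beside 7.03, 13.7, 16.4 and 20.8% of all genes in either direction. At 72 h 2486 of the 3448 genes past both limits were higher. In the list the median log2 difference at 72 h was 1.16, beside 0.02 over all genes. CTSC, the dipeptidyl peptidase that removes the activation peptide of granzymes, was high throughout, at 267 to 288 TPM in DMSO and 236 to 241 TPM at 72 h (log2 difference -0.30, not over 2-fold). CTSH, which can take its place, rose by 1.19 on the log2 scale at 72 h, from 128 to 140.0 TPM to 324 to 333 TPM. CTSL, linked to perforin maturation, rose from 24 h on and stood at 32.1 to 36.4 TPM at 72 h, from 4.87 to 5.54 in DMSO (2.58 on the log2 scale, SE 0.06).
CTSB, a lysosomal protease, rose by 1.12 at 72 h. CST7, the gene of cystatin F, an inhibitor of CTSC in cytotoxic cells, rose by 1.34 at 48 h and 2.83 at 72 h, from 1.93 to 2.50 TPM to 16.4 to 17.8 TPM. CST3, a general cystatin, differed by 0.72 and did not pass both limits. CTSW, a protease of cytotoxic lymphocytes, had at most 3 counts in any library. In sgEPCR cells UM171 raised CTSL by 2.36 and CTSB by 1.25 on the log2 scale, 2 of 6 tested, beside 6.99% of all genes upward. Without the pair of high mitochondrial share these were 2.55 and 1.25, and CST7 passed as well (1.32), 3 of 6, beside 9.98% of all genes upward.

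Of the inhibitors of granule proteases, SERPINB9, the intracellular inhibitor of granzyme B, had at most 2 counts in any library, including those in which GZMB was above 96 TPM. SERPINA3, which inhibits cathepsin G and chymase, had 0 counts in all groups, and SERPINC1 and SPINT2 were too low to be tested. The 3 tested genes were other clade B serpins. SERPINB8 was higher at 24, 48 and 72 h, by 1.05, 1.55 and 1.18 on the log2 scale, from 53.9 to 58.0 TPM in DMSO to 160.1 to 168 TPM at 48 h. SERPINB1, an inhibitor of elastase and cathepsin G, stood at 371 to 389 TPM in DMSO, 249 to 260 at 24 h and 495 to 543 at 72 h, without passing 2-fold, and SERPINB6 differed by 0.81 at 72 h. None of the 3 passed both limits in sgEPCR cells, beside 10.3% of all genes in either direction. There 1 of them, SERPINB1, and 52.1% of all genes had an adjusted p under 0.05 by edgeR.

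Among 19 genes of granule transport and release, 18 were tested, and 3 rose and 0 fell at 72 h, beside 20.8% of all genes in either direction, with a median log2 difference of 0.06, beside 0.02 over all genes. The list as a whole thus held no larger share than all genes did. RAB27A, the GTPase that docks lytic granules, rose by 1.53 on the log2 scale at 72 h, from 30.5 to 32.7 TPM to 74.4 to 85.6 TPM. The synaptotagmin-like effectors of RAB27A, SYTL1 and SYTL3, rose by 2.56 and 5.42, SYTL3 from at most 0.38 TPM to 3.54 to 4.24 TPM. LYST, a regulator of lysosome size whose loss causes Chediak-Higashi syndrome, fell by 1.04 at 24 h and by 1.08 at 48 h. In sgEPCR cells SYTL3 was the only one of the 18 that passed, with a log2 difference of 3.52 (3.47 without the pair, when STX11 also rose and LYST fell), and RAB27A differed by 0.04 (SE 0.12). Of all genes, 10.3% passed there in either direction, and 15.7% without the pair.
The sulfated chains of serglycin are built by a further group of 22 enzymes, of which 19 were tested. At 72 h 6 rose and 2 fell, beside 20.8% of all genes in either direction, with a median log2 difference of 0.66. At an adjusted p under 0.05 with no minimum fold, 11 were higher and 7 lower, beside 75.6% of all genes in either direction. UST, a uronyl sulfotransferase, rose by 3.23, CHPF, the chondroitin polymerising factor, by 2.47, DSE, dermatan sulfate epimerase, by 2.44 and CSGALNACT1, which starts chondroitin chains, by 1.59, the last from 0.09 to 0.12 TPM to 0.28 to 0.58 TPM. Those that fell were B3GALT6 and CHPF2, a galactosyltransferase of the linker and a chondroitin polymerising factor, by 1.35 and 1.14. DSE also rose in sgEPCR cells, by 2.60, the only one of the 18 tested there, beside 10.3% of all genes in either direction. Without the pair DSE rose by 2.55, and CHPF rose and CHST12 fell as well, 3 of 19 tested, beside 15.7% of all genes.

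**Figure D4:**
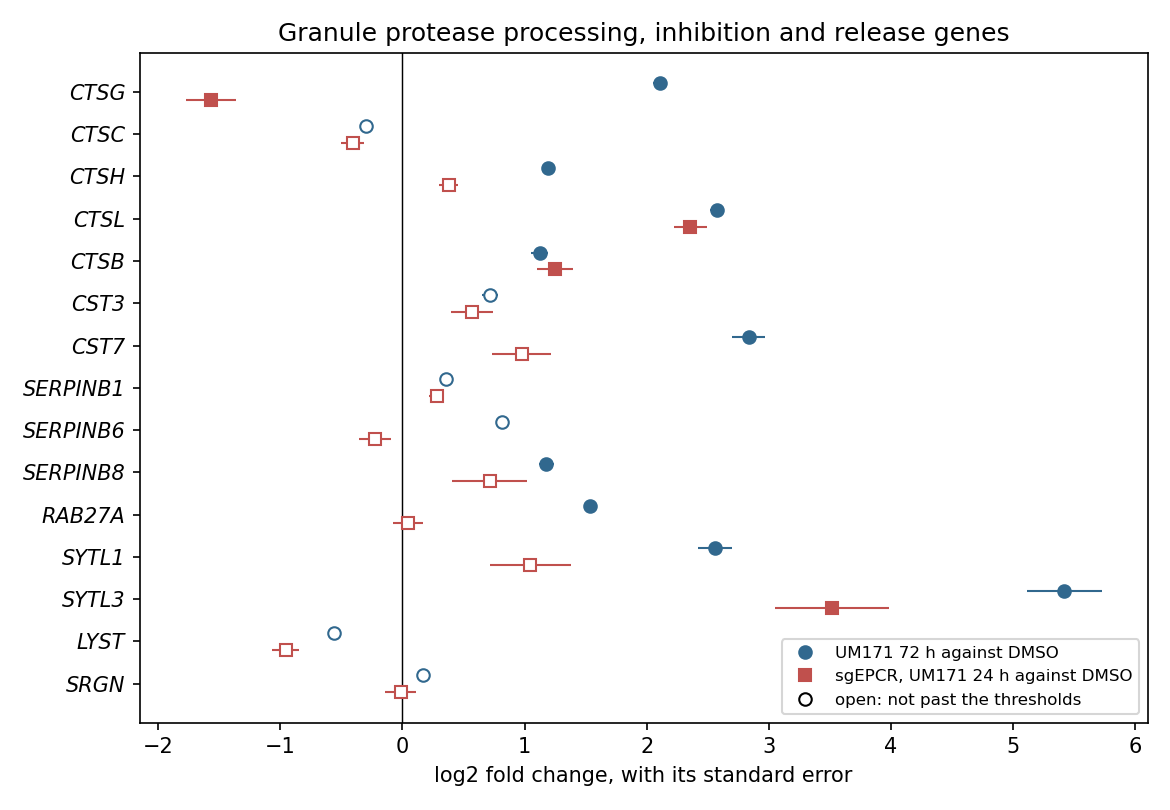
Log2 fold change with its standard error (x axis) for CTSG, the processing, inhibitor and release genes named in the text and SRGN (y axis), at 72 h of UM171 against DMSO (blue circles) and for 24 h of UM171 in sgEPCR cells (red squares); filled symbols passed both limits, open ones did not. SYTL3 has the largest value at 72 h, 5.42, and CTSG lies at 2.11 at 72 h but at -1.57 in sgEPCR cells.

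Of 18 listed transcription factors of cytotoxic lymphocytes, 13 were tested, and 2 rose and 0 fell at 72 h, beside 20.8% of all genes in either direction, with a median log2 difference of 0.20. At an adjusted p under 0.05 with no minimum fold 5 were higher and 4 lower, beside 75.6% of all genes in either direction. Among the lower were BATF and IKZF1, with log2 differences of -0.71 and -0.61. TBX21, a master regulator of cytotoxic programs, had at most 1 count and EOMES, its relative, at most 22 counts in any library. STAT4, which carries interleukin-12 signals, rose by 4.62 at 72 h, from 3 counts in all of DMSO to 85, and stayed at or under 0.61 TPM. STAT4 passed the filter through the UM171 groups, so its passing and its direction are not independent. BCL6, a repressor, rose by 1.76, and PRDM1, the gene of BLIMP-1, rose at 6 and 24 h, by 1.28 and 1.53, and differed by 0.17 at 72 h. IKZF2, the gene of Helios, rose by 1.30 at 24 h. In sgEPCR cells 2 of 12 tested rose with UM171, beside 6.99% of all genes upward, among them BCL6 by 1.46. Without the pair 3 of 13 rose, BCL6 by 1.43, and 2 fell, beside 15.7% of all genes in either direction.

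Markers of cell types known to hold granzyme B were followed beside it. Of 11 mast cell and basophil genes listed, 8 were tested, of which 0, 3, 7 and 8 rose after 6, 24, 48 and 72 h, beside 7.03, 13.7, 16.4 and 20.8% of all genes in either direction, and 1 fell at 24 h. The median log2 difference at 72 h was 3.88, beside 0.02 over all genes. HDC and CPA3 had at most 5 counts in a DMSO library and passed the filter through the groups in which they were high. The summed level of all 11 listed genes was 69.1 to 72.7 TPM in DMSO, 70.8 to 72.9 after 6 h and 137 to 182 after 24 h. It then reached 344 to 432 by 48 h and 620 to 679 by 72 h. In sgEPCR cells the sum was 30.1 to 79.4 TPM in DMSO and 116 to 255 TPM in UM171. HDC, the enzyme of histamine synthesis, rose by 8.63 at 48 h and 9.28 at 72 h, from at most 0.11 TPM in DMSO to 19.6 to 37.5 and 43.4 to 58.6 TPM. CPA3, mast cell carboxypeptidase, rose by 7.70 at 72 h, PRG2, eosinophil major basic protein, by 4.26 and FCER1A, a chain of the IgE receptor, by 4.75, the last staying at or under 2.34 TPM. FCER1A was thus near 0 in DMSO, and its passing the filter and its direction are not independent.
The defining receptor gene KIT was at 0 in all libraries of 48 and 72 h, CLC had at most 2 counts and MS4A2 at most 17. In sgEPCR cells 5 of 7 tested rose with UM171, beside 6.99% of all genes upward, HDC by 7.78 and CPA3 by 6.80 on the log2 scale. Without the pair 6 of 8 rose and 1 fell, beside 15.7% of all genes in either direction, HDC rising by 8.53 and CPA3 by 7.12. In RNA from all cells together, more cells of a type and more RNA per cell cannot be told apart, and the part of such cells in the GZMB level was not tested.

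**Figure D5:**
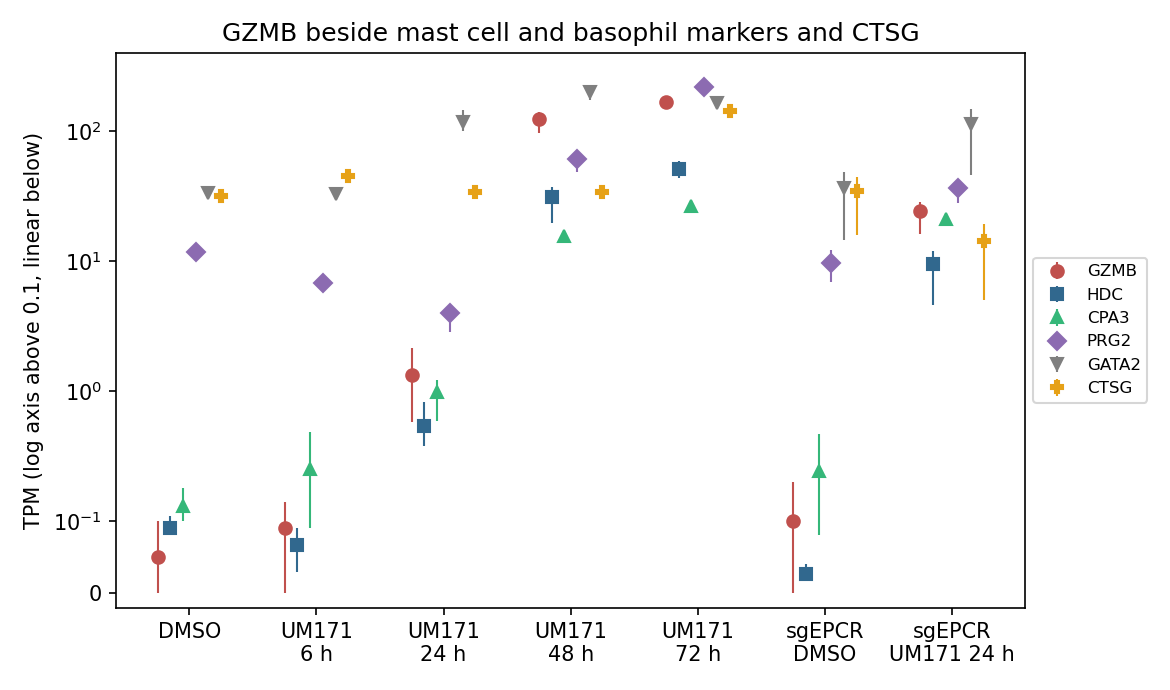
TPM (y axis, logarithmic above 0.1 and linear below) of GZMB, CTSG and 4 mast cell or basophil markers by group (x axis), as the mean of 3 libraries with bars from the lowest to the highest library. GZMB, HDC and CPA3 lie below 1 TPM in DMSO and 6 h and above 14 TPM at 48 and 72 h, while CTSG stays between 29.9 and 37.2 TPM at 48 h.

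Markers of T and NK cells had a summed level of 24.1 to 24.8 TPM in DMSO, 58.0 to 74.1 after 48 h and 58.3 to 63.4 after 72 h, with 6.22 to 15.9 TPM in sgEPCR DMSO and 42.7 to 87.1 TPM in sgEPCR UM171. Of 20 listed, 6 were tested and 3 rose at 72 h, beside 20.8% of all genes in either direction. CD3D, a chain of the T cell receptor complex, rose by 5.32 to 14.6 to 18.3 TPM, IL2RB by 5.78 to 1.72 to 1.94 TPM and TRAC by 1.19, while CD247 rose at 6, 24 and 48 h and differed by 0.21 at 72 h. By these values IL2RB was near 0 in DMSO, so its passing the filter and its direction are not independent. CD3E, the partner of CD3D, had at most 4 counts, and TRBC1, TRBC2 and CD7 were listed at 0 in all libraries.
Markers of plasmacytoid dendritic cells had a summed level of 129 to 143 TPM in DMSO, 105 to 110.2 at 24 h and 195 to 203 at 72 h, with a median log2 difference of -0.42 over the 7 tested genes at 72 h. Of these, 3 rose, NRP1 by 2.64, TCF4 by 1.77 and IL3RA by 1.07, beside 20.8% of all genes in either direction, and 3 others were lower at an adjusted p under 0.05 without passing both limits, IRF7, IRF8 and SPIB, with log2 differences of -0.58, -0.76 and -1.08. At that adjusted p with no minimum fold 75.6% of all genes passed in either direction. IRF7 fell at 24 and 48 h, by 1.18 and 1.22, and the defining CLEC4C and LILRA4 had at most 1 count in any library. B cell markers summed to 9.48 to 10.5 TPM in DMSO and 23.6 to 26.5 at 72 h, where 3 of 7 were tested and rose, beside 20.8% of all genes in either direction. CD79A rose by 1.09 on the log2 scale, CD79B went from 7 counts in all of DMSO to 156 at 72 h, and PAX5, listed at 0 in DMSO, had 24 to 32 counts a library. CD79B and PAX5 passed the filter through the UM171 groups.
The myeloid markers of the labelled cell line were present throughout, with 12 of 15 tested and a summed level of 1434 to 1520 TPM in DMSO and 2236 to 2491 TPM at 72 h. At 72 h 6 rose and 1 fell, beside 20.8% of all genes in either direction, among them ITGAM by 3.02, CEBPB by 1.90, ANPEP by 1.59 and AZU1, a neutrophil granule protein, by 1.29, after AZU1 had fallen by 2.52 at 24 h. The part of these lineages in the GZMB level was not tested.

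Across the 21 libraries, the genes whose log2(TPM + 1) was most like that of GZMB, among 15780 others tested in both fits, were HDC (Pearson's r = 0.995), IL33 (0.993), GJA1 (0.991), SYNPO2L (0.989) and ROR1-AS1 (0.987). These values are a description, since the libraries fall into groups and the genes share their depth. IL33, an alarmin cytokine, was at most 0.02 TPM in DMSO, 0.10 to 0.27 TPM after 24 h and 3.81 to 5.46 TPM after 48 h, and 1.45 to 2.26 TPM in sgEPCR UM171. GJA1, the gene of connexin 43, went from at most 0.09 TPM in DMSO to 27.1 to 31.7 TPM at 72 h and 3.68 to 5.43 TPM in sgEPCR UM171. Likeness to SRGN was weaker, with ZFYVE21 (r = 0.902), SETD5 (0.885) and PHF1 (0.884) leading.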

How the data were processed

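RNA of 21 OCI-AML5 libraries was measured as poly(A) RNA with a stranded kit. Per the labels, the authors used CASAVA 1.8.2, Trimmomatic 0.35, STAR 2.5.1b and RSEM 1.2.28 on GRCh38, without roles being given. The authors deposited for each gene RSEM's expected counts, which are not normalized and split reads shared between genes, and TPM, which divides by effective length and scales every library to the same total. The deposited effective length, another column, was used only to describe GZMB and to convert floors. Counts of 45 pseudoautosomal entries on Y were added to the X entry of the same gene, leaving 58174 identifiers, 57392 of them with a symbol. Gene coordinates came from GENCODE 44, promoters from RefSeq on GRCh38.p14 (5 of the 8 members matched).

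Totals of 24.3 to 51.5 M counts set a floor of 3 counts, and counting intervals are exact at 95%. Expected counts were rounded, filtered with filterByExpr, scaled by TMM and tested with edgeR 4.0.16 in R 4.3.3 (glmQLFit and glmQLFTest) with Benjamini-Hochberg adjustment over all tested genes, 16575 in a fit of 15 time course libraries and 15901 in a fit of the 12 sgEPCR and control libraries. A gene was said to have risen or fallen at an adjusted p under 0.0001 and over 2-fold. Genes near 0 in DMSO could pass the filter only through other groups, so for them passing and an upward direction are not independent. Common dispersion corresponded to a coefficient of variation of 0.0564 in the time course and 0.187 in the sgEPCR fit. The fit was tested on simulated data with known changes. The alternatives tried were limma 3.58.1 on log2(TPM + 1) and log2(TPM + 0.1), DESeq2 1.42.0, scaling by total count or RLE, stricter and looser filters on counts, all libraries in a single fit, leaving out the pair with high mitochondrial counts, a replicate block, leaving out each library, and an adjusted p under 0.05 with no minimum fold. The study's own tests used kallisto and sleuth, which were not run here. Text and figures used Python 3.11.15 and matplotlib 3.10.9.

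The members and gene lists were chosen with earlier results of these data known. Genes named were all members, every tested gene of the 14q12, processing and inhibitor lists, up to 4 genes of each other list that passed in the time course with the largest change at 72 h, and the 5 genes most like GZMB and 3 most like SRGN. Genes named at or near 0, and genes of the lists named for a fall or a call made only without the pair of high mitochondrial share, were added after their values were seen. A gene that this rule names is not reported here.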

Additional observations from a re-analysis of the deposited data

How the results depend on the processing

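Of the counts of members past both limits, 10 changed under another choice. With an adjusted p under 0.05 and no minimum fold the count was 1 at 6 h and 1 at 24 h, 3 at 48 h and 3 at 72 h, and 1 in each genotype comparison, while 62.1, 69.7, 72.1, 75.6, 33.7 and 43.0% of all genes passed. Without a filter on low counts it was 1 at 48 h (PRF1) and 1 at 72 h (GNLY). Within sgEPCR cells it was 0 instead of 1 when at least 10 counts were required in every library, since GZMB then is not tested, and 0 with the replicate block. Leaving out each library in turn left the counts at 0 to 0 in the 4 time course, 2 genotype and interaction comparisons and at 1 to 1 for the response of sgEPCR cells. The GZMB response was 6.94 to 9.59 on the log2 scale when a library was left out and 4.48 to 9.64 under the other choices, and adjusted p-values ranged from 8.9e-30 (DESeq2) to 0.00061 (replicate block), by the tool named or edgeR and limma.

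Reversals touched differences that were past no limit. PRF1 at 6 h ran from -2.71 to 0.98 when a library was left out, negative without UM171 6 h replicate 1, which held its 3 counts (-2.71), and without DMSO replicate 3 (-0.0785). The SRGN response in sgEPCR cells turned to 0.13 with total count scaling, 0.048 when every library had to hold 10 counts and 0.24 with limma under either pseudocount, and it ran from -0.20 to 0.070 when a library was left out, above 0 without sgEPCR DMSO replicate 1 or sgEPCR UM171 replicates 1 or 3. The SRGN interaction ran from -0.070 to 0.20, negative without sgEPCR UM171 replicate 2. Total count scaling moved the median of all genes to 0.20 at 6 h, -0.25 and -0.13 in the genotype comparisons in DMSO and UM171, and 0.16 in the sgEPCR response.

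Whether equal replicate numbers pair the libraries is not given by the labels and could not be settled here. Correlations of deviations between libraries of the same number ran from -0.26 to 0.22 in the time course (7 of 30 pairs over 0.1) and from -0.86 to 0.76 in sgEPCR cells (1 of 3). In sgEPCR cells the libraries of high mitochondrial share carry different numbers, and their deviations correlated at 0.88. The check therefore cannot tell whether a number stands for a clone there. Apart from the GZMB call in sgEPCR cells, the replicate block changed no count of members, and it could not be fitted for the genotype comparisons, because numbers are nested in genotype there. Of the 5 genes most like GZMB, 3 were shared on each of the other scales, and of the 3 most like SRGN 3 and 1. Depth limits the other granzymes, PRF1 and GNLY, and gene lists other than the members were refitted only without the pair of high mitochondrial share.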

Other observations

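Genes of known granzyme B substrates, and DFFB as the partner of the substrate DFFA, were also followed, at the level of RNA. All 11 listed genes were tested in the time course, and at 72 h 1 rose and 1 fell, beside 20.8% of all genes past both limits, with a median log2 difference of -0.25, beside 0.02 over all genes. The median was 0.17 at 24 h and 0.18 at 48 h, where 2 rose and 0 fell, beside 16.4% of all genes in either direction. DFFB, the nuclease that cuts DNA in apoptosis, fell by 1.13 on the log2 scale, from 17.6 to 19.7 TPM in DMSO to 7.96 to 9.82 TPM at 72 h (adjusted p = 1.2e-11, edgeR's quasi-likelihood test). CASP10, an initiator caspase, rose by 1.03, from 3.09 to 4.23 TPM to 6.45 to 7.45 TPM (adjusted p = 4.6e-09, edgeR).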
